A study of Drosophila melanogaster with 6 samples.

Results

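The genes that copy the genome were examined in eye imaginal discs of wandering *Drosophila* larvae that lack the microRNA miR-998. A list of 44 genes was taken by name: the MCM helicase and its loading factors, the origin recognition complex, the GINS complex, the sliding clamp and its loader, the replicative polymerases, the single-strand binding proteins, the enzymes of nucleotide supply and the chromatin assembly factor. Of these 44 genes, 38 could be read, among 11982 genes read in all. RNA came from eye discs of *mir-998* exc222 homozygotes (w; mir-998[exc222], called mutant here; 3 arrays) and of *w1118* (called wild type; 3 arrays). Larvae of both genotypes carry a *white* mutation and were raised at 25 °C, and each array was made from 6 µg of total RNA. The paper made the *mir-998* allele by rounds of P-element transposition in other stocks and describes no crosses to *w1118*. A difference of strain background therefore cannot be told apart from the loss of *mir-998*. The exc222 allele came from an imprecise excision and keeps a piece of the P-element within the *mir-998* hairpin. This hairpin lies in the last intron of *dE2f1*, and the allele is present in every cell of the animal. The aim of the study's array experiment was to find genes misexpressed when *mir-998* is lost.

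DNA replication is prepared in G1, when the origin recognition complex, Cdc6 and Double parked (Cdt1) load the Mcm2-7 helicase onto origins. Kinases then switch the helicase on at the start of S phase through Cdc45 and GINS, and the clamp, its loader and the polymerases copy both strands. Many of these genes are transcribed at the G1/S transition by E2F, the factor of which *dE2f1* encodes the activating form. In the larval eye disc, cells divide at random ahead of the morphogenetic furrow, arrest in G1 within it, and many pass through 1 synchronous S phase behind it, the second mitotic wave.

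Expression is given on the log2 scale as computed by rma, a procedure that removes background, equalizes the distributions of the arrays and combines the probes of each probe set into 1 value. Array medians were 5.25 to 5.30, and probe sets for bacterial *trp* RNA, which mark the background, averaged 3.63 to 3.72. All 38 genes were above that background, with no value below 7.06 on any array. A probe set's brightness depends on its probes, so levels are set only between arrays for the same gene, not between genes. The labels call the arrays biological replicates but name no separate crosses, so the p-values rest on a spread that may be technical in part. In RNA from whole discs, fewer cells in S phase and less RNA per cell cannot be told apart. Mature miR-998 is not analysed here, and *dE2f1* is named only on a probe set that it shares with *Torsin*, so the arrays were not used to check the genotypes.

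None of the 38 replication genes passed an adjusted p of 0.05 from limma in *mir-998* mutant discs, where 1.93% of all genes read did and are referred to as called (231 of 11982). At an unadjusted p under 0.05 from limma there were 7, of which 6 were higher and 1 lower, or 18.4% of the list against 13.9% of all genes. The mutant arrays all lay above the wild type arrays for 7 genes (*Mcm3*, *dpa*, *Mcm10*, *Psf2*, *Psf3*, *RPA2* and CAF-1 p105), or 18.4% of the list, where 9.37% of all genes did so. They all lay below for 1, *Psf1*, where 8.73% of all genes did so. In direction, 27 genes were higher and 11 lower in the mutant, against 6002 higher and 5850 lower among all genes. The median log2 fold change of the list, mutant minus wild type, was 0.075, beside 0.00333 for all genes.

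The precision puts bounds on the changes that these arrays leave possible. For 33 of the 38 genes the 95% interval of the log2 fold change lay within 0.5 either way, which held for 73.2% of all genes. For all 38 it lay within 1 either way, which held for 93.4% of all genes. The lowest bound was -0.94, for *RPA3*, and the highest was 0.72, for *Mcm10*. With 3 arrays a genotype, the smallest p that exact permutation allows is 0.1, so no permutation p is given, and the calls rest on limma.

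**Figure D1:**
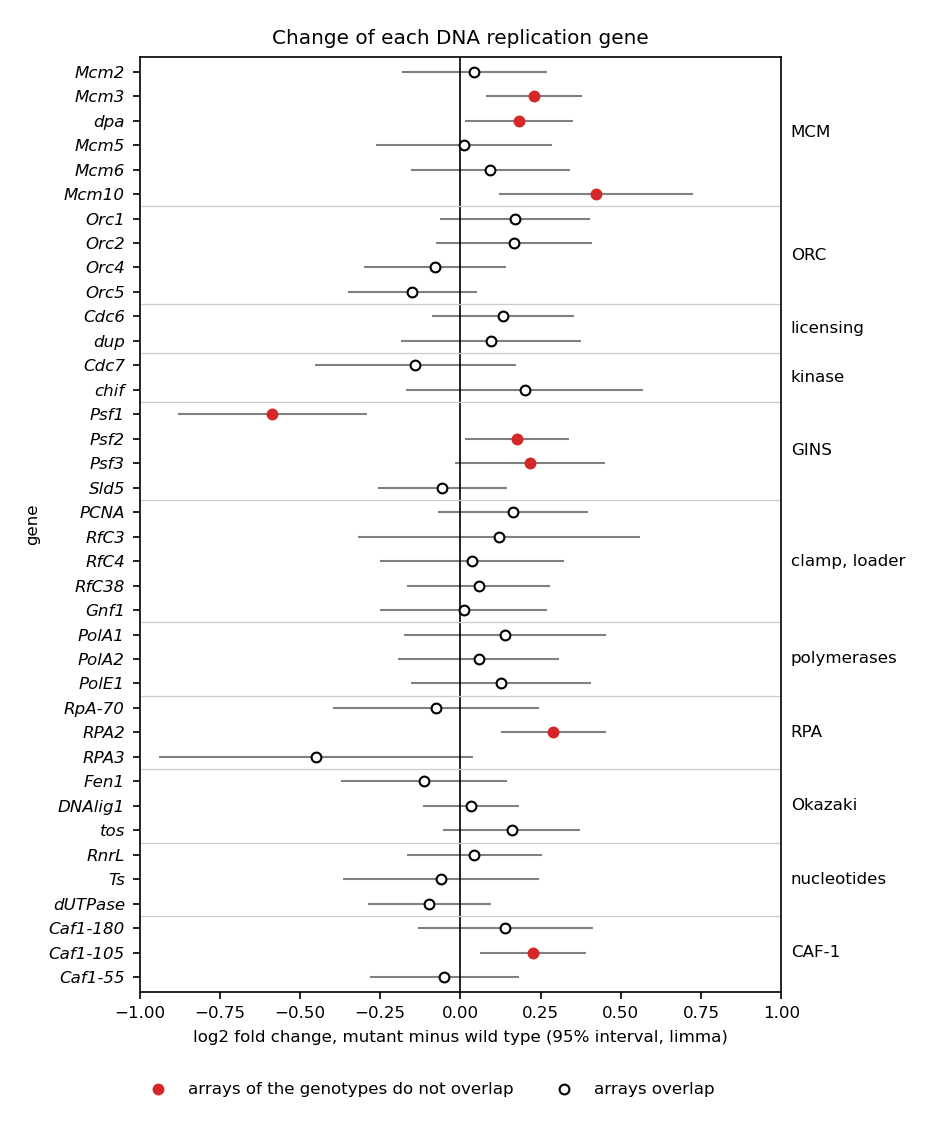
Log2 fold change of each of the 38 genes, mutant minus wild type (points), with its 95% interval from limma (bars), grouped by role from top to bottom. Filled points mark the 8 genes whose mutant and wild type arrays do not overlap, 7 to the right of 0 and *Psf1* to the left, and most of the bars cross 0.

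All 6 of the MCM and MCM-loading genes that were read had a higher mean in the mutant, and none was called. Without wild type replicate 3, 3 of them were higher and 3 lower (*Mcm2* by -0.0017, *Mcm6* by -0.015 and *Mcm5* by -0.11). Their median log2 fold change was 0.093 in that fit and 0.138 with all 6 arrays. *Mcm2*, a subunit of the helicase ring, had log2 values of 10.68, 10.62 and 10.66 on the mutant arrays, against 10.51, 10.80 and 10.52 on the wild type arrays. The mutant values fell inside the wild type range, and the log2 fold change was 0.04 (SE, standard error, 0.09; adjusted p = 0.932 from limma). *Mcm3*, another ring subunit, had 10.53, 10.52 and 10.61 in the mutant, against 10.30, 10.30 and 10.37 in wild type. The genotypes did not overlap, with a log2 fold change of 0.23 (SE 0.06, adjusted p = 0.192 from limma). *dpa*, which encodes Mcm4, had 10.06, 10.14 and 10.11 in the mutant, against 9.83, 10.00 and 9.93 in wild type. Its arrays did not overlap either, and its log2 fold change was 0.18 (SE 0.07, adjusted p = 0.369 from limma).

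*Mcm10*, whose product binds the helicase and helps to start and keep forks moving, had the largest increase of the 38 genes. Its log2 values were 8.94, 8.88 and 8.73 in the mutant, against 8.53, 8.58 and 8.17 in wild type. Wild type replicate 3 was the lowest of the 6, and the genotypes did not overlap. The log2 fold change was 0.42 (SE 0.13, adjusted p = 0.235 from limma), a 1.34-fold difference with an interval of 1.09 to 1.65. Without wild type replicate 3 it was 0.30 (adjusted p = 0.171 from limma). The other helicase subunits lay closer to 0, with a log2 fold change of 0.01 for *Mcm5* and 0.09 for *Mcm6*. *Mcm7* has no probe set named here.

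The origin recognition complex, which marks where replication begins, moved in no common direction. *Orc1*, the subunit that E2F regulates in the fly, had 8.25, 8.14 and 8.36 in the mutant, against 7.92, 8.16 and 8.16 in wild type. Wild type replicate 1 stood low and the other arrays of the genotypes overlapped, giving a log2 fold change of 0.17 (SE 0.10, adjusted p = 0.611 from limma). The log2 fold change was 0.17 for *Orc2*, -0.08 for *Orc4* and -0.15 for *Orc5*. *lat*, which encodes the Orc3 subunit, is read only on a probe set shared with *CG34315*, which differed by 0.04, and *Orc6* has no probe set named here.

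The licensing factors differed by less than the spread of their arrays. *dup*, the fly Cdt1, had 9.59, 9.62 and 9.65 in the mutant, against 9.54, 9.74 and 9.29 in wild type. Its mutant values lay within the wild type range, and the log2 fold change was 0.10 (SE 0.12, adjusted p = 0.860 from limma). *Cdc6* differed by 0.13, and *geminin*, the inhibitor of Cdt1, has no probe set named here. Of the kinase that fires origins, *Cdc7*, the catalytic subunit, had 8.99, 8.97 and 9.13 in the mutant, against 8.89, 9.27 and 9.35 in wild type, a log2 fold change of -0.14 (SE 0.13, adjusted p = 0.797 from limma). *chif*, its Dbf4-like partner, differed by 0.20 (SE 0.15) on its brighter probe set and by 0.12 on its other one, so the mean of the kinase was lower and that of its partner higher, neither of them called.

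GINS, the 4-subunit complex that joins Mcm2-7 and Cdc45 in the active helicase, held the gene with the largest decrease of the list and a pair with increases. *Psf1* had 7.82, 7.78 and 7.40 in the mutant, against 8.33, 8.20 and 8.23 in wild type. Every mutant array was below every wild type array, and mutant replicate 3 was the lowest. The log2 fold change was -0.59 (SE 0.12), a level 0.666 times that of wild type, and its adjusted p of 0.097 from limma, the smallest of the 38, did not reach the threshold. *Psf2* had 9.19, 9.03 and 9.10 in the mutant, against 8.92, 8.90 and 8.97 in wild type. *Psf3* had 9.12, 8.86 and 9.01 in the mutant, against 8.85, 8.85 and 8.64 in wild type. For both, each mutant array was above each wild type array, with log2 fold changes of 0.18 for *Psf2* (adjusted p = 0.375 from limma) and 0.22 for *Psf3* (adjusted p = 0.474 from limma). *Sld5*, the remaining subunit, differed by -0.06. The products of these genes work as 1 complex, while their mean differences ran from -0.59 to 0.22; the difference between subunits was not tested.

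The sliding clamp and its loader all had slightly higher means in the mutant, and none of the 5 genes was called. Without wild type replicate 3, 1 of them (*PCNA*) was higher, 3 were lower and 1 was equal. *PCNA*, the clamp that holds polymerases on DNA and a widely used E2F target, had 11.86, 11.82 and 11.79 in the mutant, against 11.86, 11.58 and 11.54 in wild type. Wild type replicate 1 was as high as the highest mutant array, and the log2 fold change was 0.16 (SE 0.10, adjusted p = 0.630 from limma). *RfC4*, a subunit of the clamp loader, had 10.98, 10.82 and 10.75 in the mutant, against 11.00, 10.84 and 10.60 in wild type. All mutant values lay between wild type replicate 1, the highest, and wild type replicate 3, the lowest, and the log2 fold change was 0.04 (SE 0.12, adjusted p = 0.957 from limma). The other loader subunits differed by 0.12 (*RfC3*), 0.06 (*RfC38*) and 0.01 (*Gnf1*, the large subunit).

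The polymerase genes that were read differed by 0.06 to 0.14. *PolA1*, the catalytic subunit of the polymerase that lays down primers, had 8.23, 8.28 and 8.44 in the mutant, against 7.91, 8.37 and 8.25 in wild type. Wild type replicate 1 was low and the rest overlapped, and the log2 fold change was 0.14 (SE 0.13, adjusted p = 0.798 from limma). *PolA1* is separated from *dE2f1*, the host gene of *mir-998*, by 2 protein-coding genes; its difference was within the spread of its arrays. The leading-strand polymerase gene *PolE1* differed by 0.13 and *PolA2* by 0.06. *PolD1* has no probe set named here.

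The 3 subunits of RPA, the heterotrimer that coats single-stranded DNA at the fork, had mean differences from -0.45 to 0.29, none of them called, and the difference between subunits was not tested. *RpA-70*, the large subunit, had 10.92, 10.98 and 10.73 in the mutant, against 11.14, 11.03 and 10.69 in wild type. Its arrays overlapped, with a log2 fold change of -0.08 (SE 0.13, adjusted p = 0.911 from limma). *RPA2*, the middle subunit, had 11.00, 10.93 and 10.93 in the mutant, against 10.67, 10.74 and 10.58 in wild type. All mutant arrays were above all wild type arrays, a 1.22-fold difference (log2 fold change 0.29, SE 0.07, adjusted p = 0.136 from limma). *RPA3*, the small subunit, had 10.39, 10.27 and 9.82 in the mutant, against 10.90, 10.65 and 10.28 in wild type. Both genotypes spread widely here, with standard deviations of 0.30 in the mutant and 0.31 in wild type, and the log2 fold change of -0.45 had an SE of 0.20 (adjusted p = 0.477 from limma). In both genotypes the array numbered 1 was the highest and the array numbered 3 the lowest. With same-numbered arrays fitted as blocks, the adjusted p of *RPA3* from limma was 0.0686, and it was not called.

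Genes of lagging-strand processing and nucleotide supply had log2 fold changes from -0.11 to 0.16, none of them called. Without wild type replicate 3, all 3 nucleotide supply genes read were lower. Of the 3 lagging-strand genes, 2 were higher and 1 was lower in that fit. *Fen1*, the flap endonuclease that trims Okazaki fragments, had 9.00, 8.92 and 8.83 in the mutant, against 9.23, 9.00 and 8.86 in wild type. Its arrays overlapped, with a log2 fold change of -0.11 (SE 0.11, adjusted p = 0.803 from limma). *DNAlig1*, the ligase that seals the fragments, differed by 0.03 with an SE of 0.06, and *tos*, an exonuclease of the Exo1 type, by 0.16. *RnrL*, the large subunit of ribonucleotide reductase, had 11.11, 11.13 and 11.06 in the mutant, against 11.04, 11.21 and 10.92 in wild type. The mutant values lay inside the wild type range, and the log2 fold change was 0.04 (SE 0.09, adjusted p = 0.924 from limma). *RnrS*, the small subunit and a common marker of S phase in discs, has no probe set named here. *Ts*, thymidylate synthase, differed by -0.06, and *dUTPase*, which keeps uracil out of DNA, by -0.10.

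The chromatin assembly factor CAF-1 places new histones behind the fork. The gene of its large subunit, CAF-1 p180, had 8.91, 9.12 and 9.20 in the mutant, against 8.83, 9.12 and 8.86 in wild type, a log2 fold change of 0.14 (SE 0.11, adjusted p = 0.755 from limma). The gene of the middle subunit, CAF-1 p105, had 7.42, 7.37 and 7.31 in the mutant, against 7.16, 7.20 and 7.06 in wild type. The genotypes overlapped for p180 and not for p105, whose log2 fold change was 0.23 (SE 0.07, adjusted p = 0.246 from limma). The gene of the p55 subunit, a histone chaperone that also serves in other chromatin complexes, differed by -0.05.

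**Figure D2:**
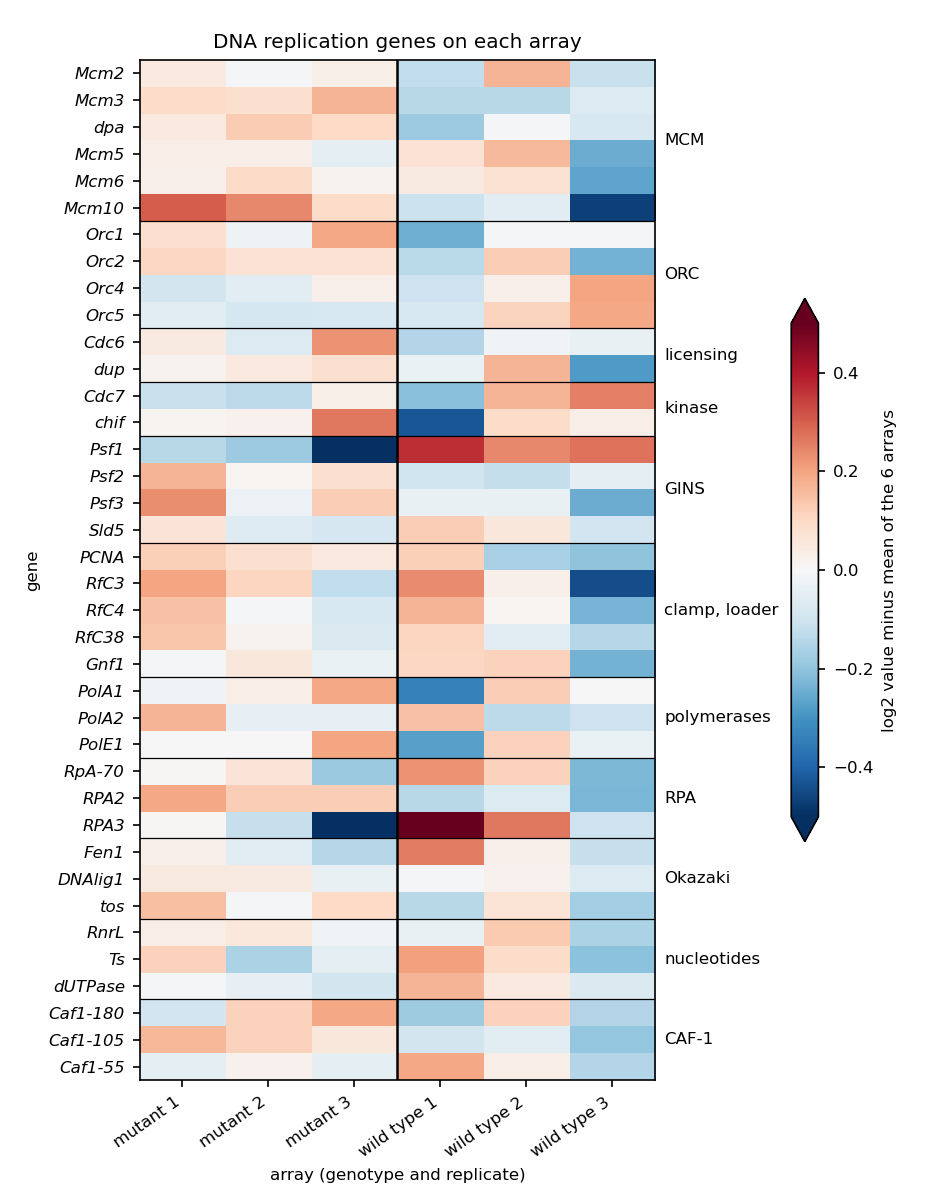
Log2 value of each of the 38 genes on each array minus that gene's mean over the 6 arrays (colour, red above and blue below the mean, with the scale ending at 0.5 either way), mutant arrays left of the line and wild type arrays right. The wild type columns are more varied than the mutant columns, and wild type replicate 3 is blue for most genes outside the origin recognition complex and the kinase.

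The replication genes varied more among the wild type arrays than among the mutant arrays. The median standard deviation of the 38 genes was 0.082 in the mutant and 0.162 in wild type, and it was larger in wild type for 32 of them. Over all genes the medians were 0.09 in the mutant and 0.14 in wild type; wild type arrays varied more there too. Relative to each gene's own mean, the median deviation of the list was 0.04, 0.02 and 0.03 on the mutant arrays, against -0.04, 0.05 and -0.13 on the wild type arrays. Wild type replicate 3 stood below the rest, and wild type replicate 2 was the highest of all 6. Replicate 3 was the lowest of the wild type arrays for 23 of the 38 genes (60.5%), and for 36.0% of all genes. The small excess of higher genes in the mutant rested on that array: without it 18 genes were higher, 19 lower and 1 equal, and the median log2 fold change was -0.000833. With each other array left out in turn, the median stayed between 0.045 and 0.13.

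**Figure D3:**
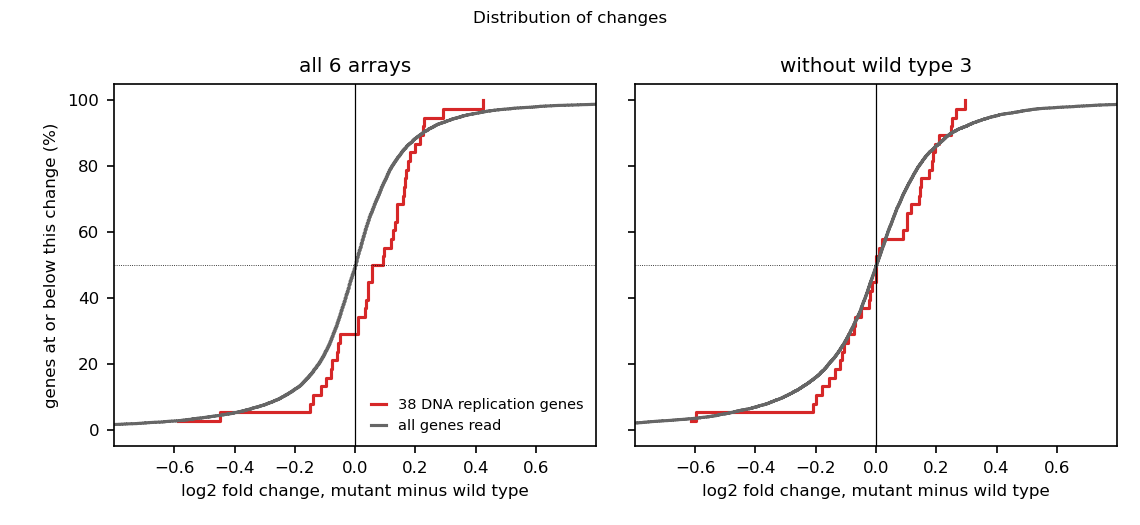
Share of genes (vertical axis, in percent) at or below each log2 fold change, mutant minus wild type (horizontal axis), for the 38 replication genes and for all genes read, with all 6 arrays (left) and without wild type replicate 3 (right). The curve of the replication genes crosses 50% at 0.075 on the left and at about 0 on the right.

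Leaving out wild type replicate 3 shifted some genes more than others. The log2 fold change stayed at 0.25 for *Mcm3*, 0.19 for *dpa*, 0.20 for *Psf2* and 0.25 for *RPA2*. It became -0.21 for *RpA-70*, -0.20 for *Fen1*, -0.18 for *Ts*, -0.16 for *dUTPase* and -0.14 for CAF-1 p55. *Psf1* kept -0.60 (adjusted p = 0.124 from limma). The lowest value in that fit was that of *RPA3*, at -0.615 (adjusted p = 0.193 from limma). The highest was that of *Mcm10*, at 0.295 (adjusted p = 0.171 from limma). None of the 38 was called in that fit, and 7 genes lay wholly above and 7 wholly below the 2 remaining wild type arrays. Of all 11982 genes read, 2179 lay wholly above and 2030 wholly below in the same fit, a background against which these counts do not mark the list.

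The genes also differed in which array of a genotype was lowest. Arrays numbered 3 were the lowest in both genotypes for 16 of the 38 genes (42.1%), and for 17.0% of all genes. These were *Mcm5*, *Mcm6*, *Mcm10*, *Sld5*, *PCNA*, *RfC3*, *RfC4*, *RfC38*, *Gnf1*, *RpA-70*, *RPA3*, *Fen1*, *DNAlig1*, *RnrL*, *dUTPase* and CAF-1 p105. Wild type replicate 1 was the lowest wild type array for *Mcm2*, *dpa*, *Orc1*, *Orc4*, *Orc5*, *Cdc6*, *Cdc7*, *chif*, *PolA1*, *PolE1* and CAF-1 p180. These were 11 of the 38 genes (28.9%), near the 30.2% of all genes for which it was the lowest. The first group was set by both genotypes and the second by wild type alone, and genes of MCM and of CAF-1 were in both. Arrays numbered 1 were the highest in both genotypes for 11 genes (28.9%), and for 18.9% of all genes. The labels do not say that a number stands for a shared day or cross. Of the fat body markers, 4 of 8 could be read, and *Lip3* among them was near the background (means of 4.25 in the mutant and 4.16 in wild type). The mean log2 level of the 4 markers was 8.11, 6.33 and 5.59 on the mutant arrays, against 8.52, 6.75 and 5.89 on the wild type arrays. These levels too were highest on the arrays numbered 1 and lowest on those numbered 3 in both genotypes, and the part of fat body RNA in the replication values was not tested beyond the fit with that level as a covariate, in which none of the 38 genes was called.

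Markers of the disc itself moved with the replication genes across the wild type arrays. All 12 eye disc markers had a higher mean in the mutant, none was called, and their median log2 fold change was 0.30. Their mean log2 level was 9.90, 9.86 and 9.97 on the mutant arrays, against 9.65, 9.94 and 9.19 on the wild type arrays. Wild type replicate 3 was the lowest wild type array for 9 of the 12, and their median deviation there was -0.56, beside -0.13 for the replication genes. Without that array 9 of the eye disc markers were higher and 3 lower, with a median of 0.10.

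**Figure D4:**
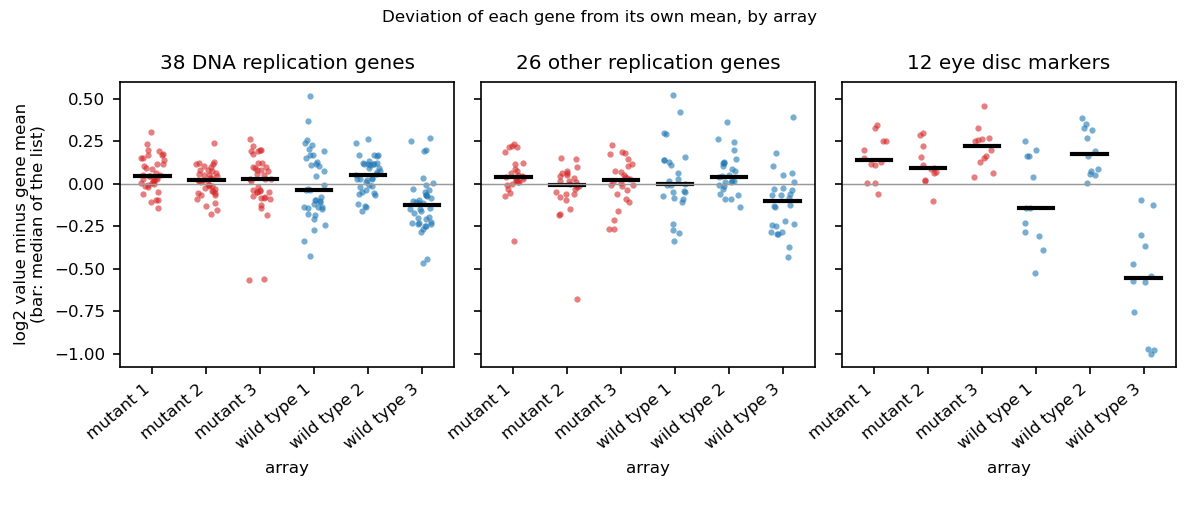
Deviation of each gene from its own mean over the 6 arrays, in log2 units, for the 38 replication genes, 26 other replication genes and 12 eye disc markers (points), with the median of each list on each array (bars), mutant arrays in red and wild type arrays in blue. Wild type replicate 3 has the lowest median in all panels, most so for the eye disc markers.

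Markers of other tissues were at the following levels. The 10 hemocyte markers all had a higher mean in the mutant (median 0.60, 1 called), with a mean level of 8.61, 8.44 and 8.90 in the mutant, against 8.22, 7.58 and 8.08 in wild type. Of 8 genes listed as markers of neuroblasts, dividing cells of the brain, 7 were higher (median 0.16, 1 called). Their mean level was 7.63, 7.56 and 7.66 in the mutant, against 7.37, 7.43 and 7.38 in wild type. The largest change was that of *pros* (0.63, adjusted p = 0.195 from limma). Means of *wor* (4.40 in the mutant, 4.30 in wild type) and *l(1)sc* (4.39 and 4.45) were near the background. Whether this list reads neuroblasts in the disc RNA was not tested. The 5 muscle markers read were all lower (median -0.58), at 10.57, 10.45 and 10.91 in the mutant, against 10.88, 11.32 and 11.31 in wild type. Salivary gland markers had a mean level of 11.42, 8.69 and 8.95 in the mutant, against 8.88, 10.94 and 10.97 in wild type. The mean level of 8 germ line genes, listed as testis markers but not all specific to the testis, stayed between 4.39 and 4.53 on all arrays. The called hemocyte marker was *NimC1*, a phagocytosis receptor, with 6.94, 6.69 and 7.23 in the mutant, against 5.87, 5.0 and 5.07 in wild type (log2 fold change 1.64, adjusted p = 0.0369 from limma). The called neuroblast marker was *mira*, an adaptor for asymmetric division, with 7.76, 7.67 and 7.72 in the mutant, against 7.25, 7.26 and 7.33 in wild type (log2 fold change 0.44, adjusted p = 0.0249 from limma). Their changes kept their size, at 1.48 to 1.92 for *NimC1* and 0.415 to 0.46 for *mira* with 1 array left out, but the calls were lost when any 1 array was left out, except wild type replicate 1 for *NimC1* (adjusted p up to 0.158) and wild type replicate 3 for *mira* (adjusted p up to 0.139), both from limma. With the replicate block the adjusted p from limma was 0.0508 for *NimC1* and 0.0738 for *mira*, and with the salivary gland level as a covariate it was 0.081 for *NimC1* and 0.0713 for *mira*. With an intensity trend and robust eBayes it was 0.138 for *mira*. The genotypes did not overlap in the levels of the hemocyte and neuroblast lists, and the part of these tissues in the replication values was not tested. In the fit with the salivary gland level as a covariate, none of the 38 genes was called. That level overlapped between the genotypes, so this fit does not address the hemocyte or neuroblast lists.

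Of the other genes of replication forks and origins, 1 was called. Of 29 such genes, 26 were read, 20 were higher and 6 lower, and the median log2 fold change was 0.06. Without wild type replicate 3, 16 were higher and 10 lower, with a median of 0.025. The called gene was *rec*, an MCM-family gene related to Mcm8 that acts in meiotic recombination in the fly. It had 6.47, 6.13 and 6.54 in the mutant, against 7.33, 7.17 and 7.20 in wild type. All mutant arrays were lower, and the log2 fold change was -0.85 (SE 0.12, adjusted p = 0.0242 from limma). The call was lost without mutant replicate 1 (adjusted p = 0.0901), mutant replicate 3 (0.0573), wild type replicate 1 (0.073) or wild type replicate 2 (0.0832), and with the salivary gland level as a covariate (0.0821), all from limma. The log2 fold change itself stayed between -0.93 and -0.805 in those fits. In this list the genotypes did not overlap for 2 higher and 2 lower genes of the 26 read. Among all genes read, 9.37% were higher and 8.73% lower without overlap, and neither count exceeded its share. All but *rec* were named after their values were seen. The higher ones were *Claspin*, whose product works in the checkpoint at stalled forks, and *asf1*, a histone chaperone. *Claspin* had 7.75, 7.66 and 7.66 in the mutant, against 7.18, 7.62 and 7.23 in wild type (log2 fold change 0.35, adjusted p = 0.338 from limma), and *asf1* differed by 0.12 (adjusted p = 0.589 from limma). The lower ones were *rec* and *PolD2*, a polymerase delta subunit, which had 9.01, 8.93 and 8.97 in the mutant, against 9.22, 9.21 and 9.14 in wild type (log2 fold change -0.22, adjusted p = 0.207 from limma).

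In a list of 20 S phase regulators and other cell cycle genes, *CycB* and *fzy* of mitosis among them, 14 were read. Of these, 10 were higher, 3 lower and 1 equal, and 1 was called. *Skp2*, the substrate receptor of an SCF ubiquitin ligase that acts on cell cycle proteins, had 8.10, 8.56 and 8.40 in the mutant, against 9.85, 9.97 and 9.98 in wild type. Its log2 fold change was -1.58 (SE 0.12, adjusted p = 0.00267 from limma), and it passed the threshold with any 1 array left out. *Rbf*, the fly retinoblastoma protein that holds E2F in check, had 9.76, 9.83 and 9.87 in the mutant, against 9.25, 9.60 and 9.72 in wild type (log2 fold change 0.30, SE 0.13, adjusted p = 0.437 from limma). *CycE*, the cyclin that drives cells into S phase, had 9.95, 10.21 and 10.09 in the mutant, against 9.72, 10.15 and 10.16 in wild type (log2 fold change 0.07, adjusted p = 0.918 from limma). *Dp*, the binding partner of E2F, ranged over 9.77, 9.84 and 9.44 in the mutant, against 10.14, 10.01 and 9.18 in wild type, with an SE of 0.26 around a log2 fold change of -0.09. The probe set that *dE2f1* shares with *Torsin* had 11.58, 11.66 and 11.82 in the mutant, against 11.37, 11.71 and 11.63 in wild type (log2 fold change 0.12, adjusted p = 0.805 from limma). Of the genes of histone supply, 5 of 7 were read, all had slightly higher means in the mutant (median 0.03), and none was called.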

How the data were processed

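The authors processed the Affymetrix arrays with the rma algorithm and deposited log2 values for 18952 probe sets, with 2 decimals. After 183 control probe sets were left out, 18769 entered 1 linear model (limma 3.58.1, R 4.3.3; lmFit, then eBayes; mutant minus wild type, 6 arrays, no covariate), with Benjamini-Hochberg adjustment over all of them and a threshold of 0.05. The platform's annotation, brought to current symbols with RefSeq's gene table (Release 6), named 1 gene for 13647 probe sets and several for 402, and 4720 are unnamed here. The probe set with the highest mean stood for a gene. The members and lists were chosen with earlier results of these data known. By rule, values per array are given for the genes with the 8 smallest p-values, a defining gene of each role (both clamp and loader), called genes of the other replication and S phase lists, and *Rbf*, *CycE*, *Dp* and *dE2f1*. *RPA3*, *Claspin*, *PolD2*, *NimC1* and *mira* were added after their values were seen. The arrays give no depth; their number limits the precision. Alternatives were another normalization, eBayes settings, weighted arrays, omission of dim probe sets, the replicate block, other probe set rules, marker covariates and each array left out.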

Additional observations from a re-analysis of the deposited data

How the results depend on the processing

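No replication gene was called in any of the fits tried, whichever array was left out. The median log2 fold change of the list was 0.075, and from -0.000833 to 0.13 with 1 array left out. The number of its genes whose arrays do not overlap was 8, and 9 to 15 with 1 array left out. Fewer arrays make separation easier. Without wild type replicate 2 the number was 15, with the mutant arrays all above for 14 genes and all below for 1. Among all 11982 genes read, they were all above for 1637 and all below for 1676 in that fit. Without wild type replicate 3 the number was 14, with 7 above and 7 below, beside 2179 above and 2030 below among all genes. The difference between the list and all genes was not tested in either fit. The number of all genes called was 231, and 85 at an adjusted p at or under 0.01, 373 with array weights, 122 with a salivary gland covariate and 90 to 322 with 1 array left out. Of 608 values of the 38 genes under alternatives, 25 changed sign or became 0, in 13 genes, all of them uncalled: the 8 not given per array were *Mcm5*, *Mcm6*, *RfC3*, *RfC38*, *Gnf1*, *PolA2*, *Ts* and CAF-1 p55. Of the others, with array weights *dup* had -0.0031, *Mcm2* -0.038 and *RnrL* -0.015, and with 1 array left out the values ran from -0.02 to 0.20 for *dup*, -0.0067 to 0.14 for *Mcm2*, -0.07 to 0.13 for *RfC4*, -0.025 to 0.12 for *RnrL* and -0.21 to 0.017 for *RpA-70*. The cause was not tested. With the replicate block, 0 replication genes and 224 of all genes were called, and the median of the list was 0.075; deviations of same-numbered arrays correlated at 0.193, -0.23 and 0.286, so the arrays were not treated as pairs. A search of promoters for E2F and DRE motifs was not run, since no promoter sequence was used here.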
